A study of Mus musculus with 168 samples.

Results

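The genes described here are the semaphorins, plexins, neuropilins, Eph receptors and ephrins, families of secreted and cell-surface proteins that steer growing axons. They comprise all 53 genes, of 39410 in the deposited table, whose symbols begin with Sema, Plxn, Epha, Ephb, Efna or Efnb, together with Nrp1 and Nrp2. The set holds 20 semaphorins, 2 neuropilins, 9 plexins, 8 ephrins and 14 Eph receptors, and the rule that selects its members uses gene symbols alone. RNA was sequenced from neurons that had been cut by laser from frozen mouse brain and spinal cord, with about 150 cells pooled per tube. SMA mice of the delta7 model of spinal muscular atrophy (Smn-/-, SMN2+/+, SMN∆7+/+) were compared with littermate controls (Smn+/+, SMN2+/+, SMN∆7+/+), so that every mouse carried the human SMN2 and SMN∆7 transgenes and the controls were not wild type. The motor neurons were ocular (oculomotor or trochlear nucleus), facial, vagus, hypoglossal and lumbar spinal, and the remaining population was the red nucleus of the midbrain, whose neurons are not motor neurons. Mice were sampled at postnatal day 2 (6 control and 9 SMA mice), day 5 (5 and 5) and day 10 (4 and 5), stages that the study's design text places before, early in and late in the disease.

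Semaphorins are ligands that mostly repel axons. The secreted class, Sema3, binds neuropilins, which pair with plexins of class A to pass the signal into the growth cone, whereas membrane-bound semaphorins usually bind plexins directly. Ephrins are ligands tethered to the membrane of one cell that are read by Eph receptor tyrosine kinases on the next, and the receptor-bearing and ligand-bearing cells can both respond. In the spinal cord and brainstem these systems are known for sorting motor neurons into columns and for choosing the muscle that each motor axon reaches, and several members stay on in the postnatal nervous system, where they act at synapses.

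Values are RPKM, which count reads per unit of gene length and of sequencing depth, so that levels of different genes may be set side by side. The 168 libraries gave 160 samples, each a mouse and population, in 36 groups of 3 to 7 mice, with a depth of 0.342 to 16.3 M reads per library (median 5.89 M). Smn1 checked the genotype labels: it lay between 4.32 and 63.3 RPKM in the 72 control samples and at 0 in 70 of 88 SMA samples, whose highest value was 4.24. The motor neuron markers (7 of 8 in the table) summed to medians of 875 to 1778 RPKM in day 2 controls of the 5 motor nuclei and 32.2 in the red nucleus, while the 2 red nucleus markers, Pou4f1 and Slc17a6, summed to 472 there and 4.45 to 35.4 elsewhere. Chat had control means over all days of 20.2 (facial) to 33.9 RPKM (ocular) in the motor nuclei. Motor neuron sums here and below thus rest mainly on the other markers of that list. Markers of other cells were detected throughout: summed medians of the 9 astrocyte markers in day 2 controls ran from 470.1 in vagus to 2089.9 in lumbar samples. Astrocyte markers differed in their share of these sums. Most of the astrocyte sum was Aldoc, whose control means over all days ran from 495 in vagus to 1612 in ocular samples. Aqp4 and Aldh1l1 had means of 3.68 to 9.44 and 4.50 to 9.87. Astrocyte sums here and below are thus mostly a measure of Aldoc. Since each library pools cells, fewer cells of a type and less RNA per cell cannot be told apart in any comparison below. Library numbers in the titles, whose meaning the labels do not give, ran from 86 to 211 at day 2, and from 190 to 260 at day 10, and were below 190 at day 5, so that day 5 and day 10 libraries did not overlap in number.

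Most guidance genes were detected in control neurons, at levels that differed widely between genes. Over the 72 control samples 43 of the 53 genes had a mean of at least 1 RPKM, 20 had at least 10, and 6 stayed below 1 in every control group. Among the ligands, the membrane-bound Sema4b and Sema4g were the most abundant semaphorins, at 35.05 ± 16.5 and 20.4 ± 7.45 RPKM (SD, n = 72). The most abundant ephrins were Efna5, at 56.3 ± 53.02, and Efna3, at 26.7 ± 10.5. Among receptors, Nrp1 reached 40.3 ± 22.0 and Nrp2 17.6 ± 9.38. Plexins were lower, led by Plxna1 at 13.3 ± 5.07 and Plxna3 at 12.4 ± 6.66, which serve as the signalling partners of neuropilins. Epha4, the best studied Eph receptor of motor axons, was the highest of its family at 29.1 ± 18.1, followed by Ephb6, which lacks kinase activity. Ephb6 ranged from 4.49 to 145 RPKM with a median of 12.5, so its mean of 21.6 ± 27.2 rests on a few samples. The genes at the bottom were Ephb4 and Sema3g, at 0 in 52 and 54 of the 72 samples, and Efna4, at 0 in 61.

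**Figure D1:**
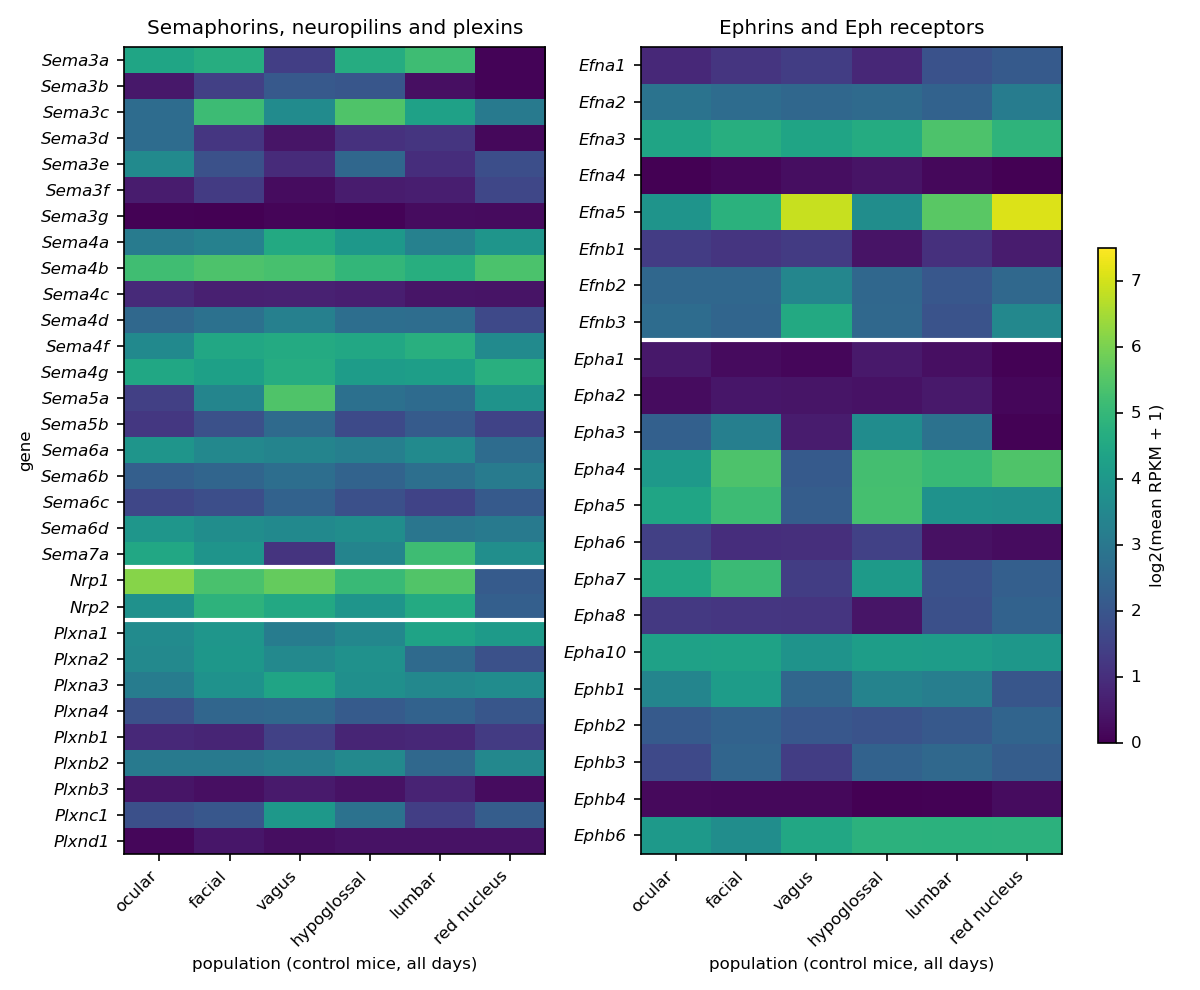
Mean RPKM of the 53 genes in control mice of all days, drawn as log2(mean + 1) by population (columns) with white lines between gene families; 11 to 13 mice per population. Efna5 was brightest in vagus and red nucleus neurons (means of 116.9 and 137 RPKM), whereas Sema3a was near 0 in the red nucleus and averaged 35.03 in lumbar neurons.

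Many guidance genes differed in level between the populations of control neurons. Each population was compared with the mean of the other 5 in controls, over all days, with limma on log2(RPKM + 1), and 50 of the 53 genes passed the filter on low values; Epha1, Ephb4 and Sema3g did not. Of these 50, 40 passed an adjusted p of 0.05 in at least 1 population. The same share was not taken over all genes, so this count has nothing to be set against. Vagus neurons had the most, with 17 higher and 13 lower, where all genes tested were called higher in 15.5% and lower in 12.2% of cases. Red nucleus neurons had 8 higher and 17 lower, against 8.82% and 13.1% of all genes. Ocular neurons had 10 higher and 12 lower (7.77% and 9.95% of all genes), and lumbar neurons 11 and 11 (9.59% and 8.8%). Hypoglossal neurons had 10 higher and 5 lower (7.11% and 3.68%), and facial neurons 10 and 2 (5.84% and 3.42%). Guidance genes and all genes passed the same filter on low values, but they were not matched for level, so the shares are a description.

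Upstream sequence is shown for 5 genes with large differences between populations, so that the promoters of ligands and receptors with opposite patterns can be read beside their values. The windows are the 250 bases before the gene start, 5′ to 3′ on the gene's strand, from RefSeq (GRCm38.p6). Capitals mark GC boxes (GGGCGG or its reverse complement CCGCCC, overlapping matches included), which are bound by Sp-family factors.
Sema3a, chr5:13396534-13396783, plus strand: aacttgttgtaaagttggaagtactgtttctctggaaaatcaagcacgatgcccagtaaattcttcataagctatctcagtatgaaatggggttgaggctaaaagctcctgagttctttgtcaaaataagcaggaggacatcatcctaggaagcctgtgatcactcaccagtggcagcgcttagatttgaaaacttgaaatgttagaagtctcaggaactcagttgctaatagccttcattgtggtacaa
Sema5a, chr15:32244563-32244812, plus strand: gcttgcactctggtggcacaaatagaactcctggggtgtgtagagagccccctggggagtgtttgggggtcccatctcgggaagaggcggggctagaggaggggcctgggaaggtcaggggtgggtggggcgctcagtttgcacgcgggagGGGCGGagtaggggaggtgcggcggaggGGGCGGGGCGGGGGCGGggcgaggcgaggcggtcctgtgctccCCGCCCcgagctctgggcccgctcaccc
Sema7a, chr9:57939862-57940111, plus strand: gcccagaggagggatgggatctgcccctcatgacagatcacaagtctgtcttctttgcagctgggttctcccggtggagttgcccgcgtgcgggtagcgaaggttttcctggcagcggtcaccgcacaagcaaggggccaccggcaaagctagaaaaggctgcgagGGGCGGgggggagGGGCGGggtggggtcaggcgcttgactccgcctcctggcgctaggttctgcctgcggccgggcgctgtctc
Efna5, chr17:62881318-62881567, minus strand: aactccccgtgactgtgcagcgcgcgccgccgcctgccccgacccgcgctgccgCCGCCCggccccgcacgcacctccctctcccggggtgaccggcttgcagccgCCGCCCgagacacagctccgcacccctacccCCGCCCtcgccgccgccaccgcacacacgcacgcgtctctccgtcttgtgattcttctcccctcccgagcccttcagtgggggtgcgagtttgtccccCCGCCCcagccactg
Epha4, chr1:77515089-77515338, minus strand: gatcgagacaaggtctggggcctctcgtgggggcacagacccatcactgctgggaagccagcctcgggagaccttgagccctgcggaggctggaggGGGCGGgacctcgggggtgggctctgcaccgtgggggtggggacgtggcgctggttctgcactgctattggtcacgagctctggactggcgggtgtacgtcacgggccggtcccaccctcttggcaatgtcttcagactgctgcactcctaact

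The Sema5a window held 5 GC boxes, Efna5 4, Sema7a 2 and Epha4 1, and Sema3a held none in a window of 40.8% G and C. The Sema3a start in RefSeq lies inside the gene's span in GENCODE M21 (chromosome 5, 13125414 to 13602565). RefSeq had 61 promoter entries for 47 of the 53 genes. A GC box was found in 46 of the 61 (75.4%), compared with 32.7% of 32851 promoters of the same length. The TATA box letters TATAAA, on either strand, were in 1 (Efnb2, 1.64%, against 12.4% of all promoters), and the homeodomain core TAATTA in 2 (Efna1 and Epha5, 3.28% against 4.84%). Guidance gene windows had a median of 64.4% G and C and 16 CG dinucleotides, against 52.4% and 6 over all promoters.

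Class 3 semaphorins, the secreted ligands of neuropilins, differed between populations gene by gene. Sema3a ranged from 23.5 to 45.2 RPKM in lumbar neurons (median 36.7, 13 mice), from 15.6 to 38.2 in facial (median 24.9, 13 mice), from 15.0 to 36.8 in hypoglossal (median 22.4, 12 mice) and from 10.8 to 31.3 in ocular neurons (median 21.2, 12 mice). It ranged from 0.464 to 3.19 in vagus (median 1.66, 11 mice) and from 0 to 0.320 in red nucleus neurons (median 0.0412, 11 mice). The vagus range did not overlap that of any other motor nucleus, and the red nucleus lay below all of them. On the log2 scale Sema3a was higher in lumbar neurons than in the mean of the others by 2.14 (SE 0.09, limma adjusted p = 3.17e-28) and lower in the red nucleus by 3.90 (adjusted p = 2.41e-40 for −3.90). Sema3c, which can attract as well as repel axons, was instead highest in hypoglossal (42.2 ± 15.8 RPKM, n = 12, log2 difference 1.72) and facial neurons (34.2 ± 6.93, n = 13, 1.44). Ocular neurons had little Sema3c (5.34 ± 2.34, n = 12) but carried Sema3d and Sema3e. Sema3e, the ligand that acts through Plxnd1 without a neuropilin, ranged from 2.37 to 31.5 in the 12 ocular mice (median 8.53) and had means of 0.914 to 4.72 elsewhere, a log2 difference of 1.84 (SE 0.21). Sema3d was at 3.12 to 14.0 in ocular neurons (median 4.49) and its means elsewhere were 0.108 to 1.30, a log2 difference of 1.83 (SE 0.16).

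Sema3a, Sema3c, Sema3d and Sema3e lie within 5.35 Mb of each other on chromosome 5. Their highest means were in lumbar (Sema3a), hypoglossal (Sema3c) and ocular neurons (Sema3d and Sema3e). Sema3b was faint, with its highest means in vagus (3.29 ± 2.79 RPKM, n = 11) and hypoglossal neurons (2.98 ± 2.73, n = 12). Sema3f was highest in the red nucleus at 2.02 ± 2.04 (n = 11).

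Membrane-bound semaphorins also marked populations. Sema5a, which carries thrombospondin repeats and can both attract and repel, ranged from 32.3 to 52.1 RPKM in the 11 vagus mice (median 43.7). In the other populations its highest single value was 21.4, in the red nucleus, so the vagus stood apart in every mouse. Ocular neurons were at the other end, from 0.471 to 4.99 (median 1.46). Its log2 difference was 2.65 (SE 0.12, limma adjusted p = 1.46e-27) in vagus and −2.28 (SE 0.12, adjusted p = 1.04e-24) in ocular neurons. Sema7a, which is anchored to the membrane by a lipid and binds Plxnc1 and integrins, was lowest in vagus neurons. It ranged from 15.8 to 57.6 in lumbar neurons (median 32.9, 13 mice) and from 0.510 to 2.51 in vagus neurons (median 0.862, 11 mice), and these ranges did not overlap. The log2 difference was 1.89 (SE 0.13) in lumbar and −2.96 (SE 0.14) in vagus neurons. Its receptor Plxnc1 was highest where Sema7a was lowest: Plxnc1 reached 15.1 ± 5.04 RPKM in vagus (n = 11, log2 difference 2.07, SE 0.17) and had means of 1.65 to 6.09 in the other populations. Sema4b and Sema4g, the most abundant semaphorins, had population means of 25.1 to 41.5 and 16.7 to 25.7 RPKM. Sema4b was lower in lumbar neurons (log2 difference −0.45), and Sema4g was higher in vagus (0.36) and red nucleus neurons (0.44).

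Neuropilins, the receptor subunits for class 3 semaphorins, were higher in every motor nucleus than in the red nucleus, by their means. Nrp1 ranged from 20.1 to 105.2 RPKM over the motor nuclei and from 0.137 to 10.4 in the red nucleus (median 2.67, 11 mice). The order of its means was ocular (69.2 ± 17.2, n = 12), vagus (51.7 ± 8.87, n = 11), lumbar (42.7 ± 12.3, n = 13), facial (39.6 ± 7.45, n = 13), hypoglossal (33.2 ± 8.23, n = 12) and red nucleus (3.44 ± 3.12, n = 11). Neighbours among the motor nuclei in this order overlapped within their SD, and the red nucleus overlapped no motor nucleus. The log2 difference of Nrp1 was −3.62 (SE 0.14, limma adjusted p = 6.2e-32) in the red nucleus and 1.42 (SE 0.13, adjusted p = 8.21e-14) in ocular neurons. Nrp2 was highest in facial (27.7 ± 5.28), lumbar (23.1 ± 6.83) and vagus neurons (22.0 ± 6.53), lower in hypoglossal (14.0 ± 4.42) and ocular neurons (12.8 ± 4.42), and lowest in the red nucleus (3.83 ± 2.11). Here too neighbouring motor nuclei overlapped within their SD. Single mice of the ocular (6.44 to 19.7) and hypoglossal groups (6.59 to 18.7) overlapped those of the red nucleus (1.86 to 9.70). The log2 difference of Nrp2 was 1.05 (SE 0.11, adjusted p = 5.1e-11) in facial neurons and −2.07 (SE 0.12, adjusted p = 2.91e-22) in the red nucleus. Plxna2, a plexin that pairs with neuropilins, was likewise low in the red nucleus (2.62 ± 1.44, n = 11, log2 difference −1.71, SE 0.14). Plxna1 was not: its mean there was 15.9 ± 3.29, and it was lowest in vagus neurons at 7.93 ± 3.43 (n = 11).

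**Figure D2:**
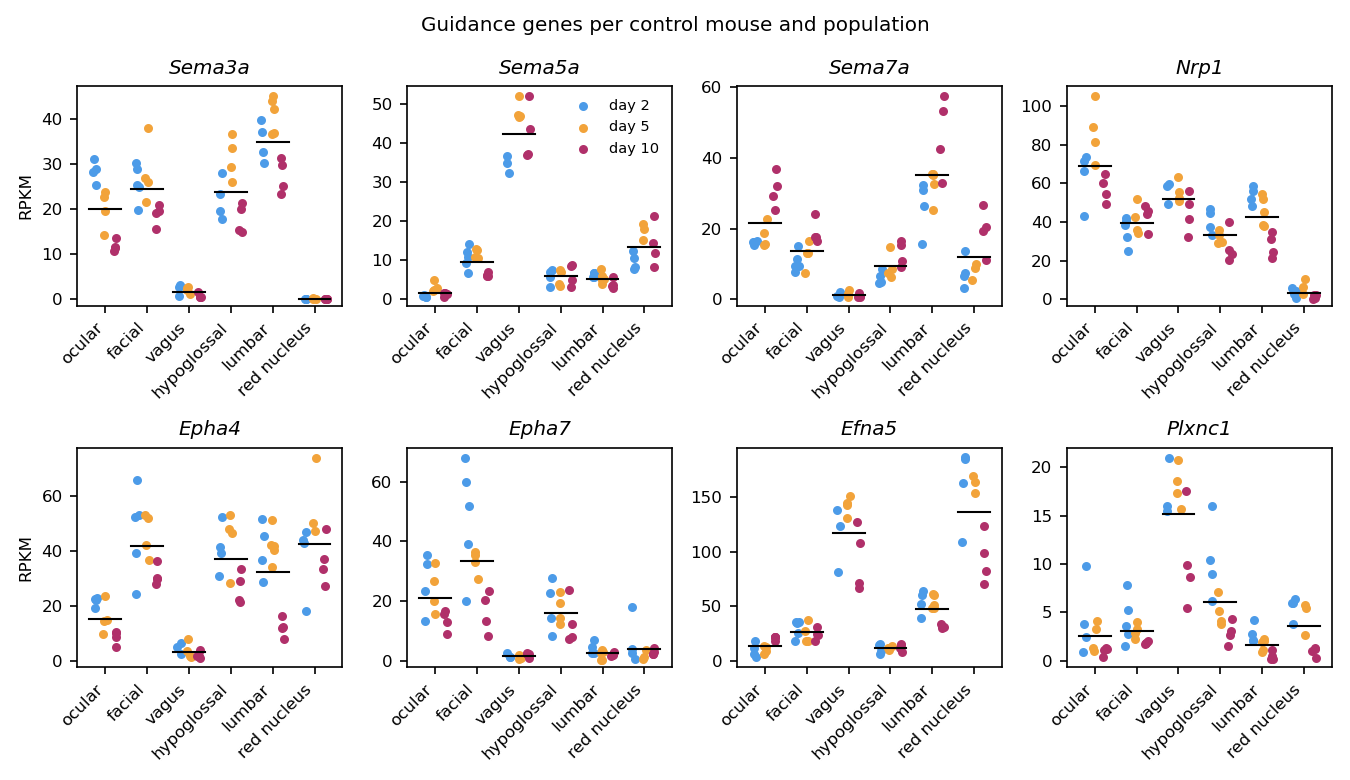
RPKM of 8 guidance genes per control mouse (points, coloured by postnatal day) in each population, with the mean over mice as a bar. Sema5a and Plxnc1 were highest in vagus neurons (means of 42.4 and 15.1 RPKM), where Sema7a, Epha4 and Epha7 were lowest, and Nrp1 was lowest in the red nucleus.

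Among the ephrins, Efna5 set vagus and red nucleus neurons apart. Efna5, a repellent ligand for EphA receptors, was at 66.9 to 151 RPKM in vagus (median 127.2, 11 mice) and 70.2 to 186.3 in red nucleus neurons (median 153.3, 11 mice), and no mouse of another population exceeded 64.3. Hypoglossal and ocular neurons had the lowest Efna5, with ranges of 5.97 to 15.5 and 3.49 to 21.5. Its log2 difference was 2.18 (SE 0.13) in the red nucleus, 1.90 (SE 0.13) in vagus and −1.94 (SE 0.13, limma adjusted p = 8.67e-20) in hypoglossal neurons. Efnb3, a transmembrane ephrin, was also highest in vagus, at 22.7 ± 14.7 (n = 11, log2 difference 2.15, SE 0.24), with means of 2.76 to 10.2 elsewhere. Facial neurons had less Efnb3 than the mean of the others by 0.66 on the log2 scale (−0.66, SE 0.22, adjusted p = 0.0453), a call that was lost when any of control mice 240, 252, 253, 254, 26, 28, 30, 34, 71 or 75 was left out (adjusted p = 0.0507 to 0.179) and with a pseudocount of 0.1 (adjusted p = 0.199). Efna1 was called higher in lumbar neurons (2.73 ± 1.72 RPKM, n = 13, log2 difference 0.88, SE 0.30, adjusted p = 0.0303). Its mean was higher in the red nucleus (3.38 ± 7.02, n = 11), where the median was 0.0886. The lumbar call was lost without control mouse 240, 244, 253, 254, 29 or 34 (adjusted p = 0.0561 to 0.0933). It was also lost in day 10 controls alone (adjusted p = 0.375). Efna1, Efna3 and Efna4 lie within 66.3 kb on chromosome 3, yet Efna3 was at 41.4 ± 5.83 in the same lumbar samples and Efna4 at 0.1197 ± 0.284.

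Several EphA receptors had their lowest level in vagus neurons. Epha4 ranged from 1.10 to 7.83 RPKM in vagus (median 2.53, 11 mice), from 5.10 to 23.6 in ocular (median 14.6), from 24.1 to 65.9 in facial (median 39.1) and from 18.0 to 74.04 in red nucleus neurons (median 44.02). Vagus neurons were below facial, hypoglossal, lumbar and red nucleus neurons in every mouse, though the lowest lumbar value, 7.86, lay just above the vagus range. The log2 difference in vagus was −2.94 (SE 0.14, limma adjusted p = 2.91e-26), and the red nucleus was higher than the mean of the others by 1.16 (SE 0.14). Epha7, a receptor for ephrin-A ligands, ranged from 8.32 to 68.1 in facial (median 33.2) and 8.83 to 35.5 in ocular neurons (median 18.3), and from 0.465 to 2.67 in vagus neurons (median 1.35). Lumbar neurons had 2.68 ± 1.76 (n = 13). Its log2 differences were 2.21 (SE 0.20) in facial, 1.61 (SE 0.20) in ocular, 1.15 (SE 0.20) in hypoglossal and −1.52 (SE 0.20, adjusted p = 9.68e-09) in lumbar neurons. Epha3 was highest in hypoglossal neurons (11.5 ± 3.02, n = 12, log2 difference 1.93, SE 0.16) and at 0 in 8 of 11 red nucleus samples. Epha5 was at 37.7 ± 12.1 in hypoglossal and 34.0 ± 11.2 in facial neurons, and at 3.62 ± 1.93 in vagus. Epha8 was highest in the red nucleus (4.10 ± 2.02, n = 11, log2 difference 1.11, SE 0.20) and lowest in hypoglossal neurons (0.339 ± 0.356, n = 12). Among EphB receptors, Ephb2 means lay between 2.78 and 4.32 in all 6 populations and no difference was called. Ephb1 was higher in facial neurons (16.9 ± 5.50, log2 difference 1.25) and lower in vagus (−0.82) and red nucleus neurons (3.00 ± 1.54, −1.39), and Ephb3 was lower in vagus neurons (−0.91).

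Between day 2 and day 10 more guidance genes of control neurons were called lower than higher, although most passed in neither direction. In lumbar motor neurons 14 of 47 tested guidance genes were lower at day 10 and 2 were higher, against 7.25% and 4.76% of all genes tested. In the red nucleus 7 of 43 were lower and 1 higher (5.42% and 5.72% of all genes), in ocular neurons 5 of 45 and 1 (3.64% and 4.38%) and in facial neurons 5 of 47 and 1 (2.76% and 2.6%). Hypoglossal neurons had 3 of 46 lower and 1 higher (2.68% and 2.43%), and vagus neurons 1 of 47 and 1 (0.437% and 0.581%). The median log2 difference of the tested guidance genes was −0.54 in ocular, −0.41 in facial, −0.34 in vagus, −0.15 in hypoglossal, −0.43 in lumbar and −0.34 in red nucleus neurons, where the medians over all genes were 0.06, −0.04, −0.07, −0.02, −0.10 and −0.01. The 35 lower calls fell on 22 genes and the 7 higher calls on 5. A gene past the threshold in some populations and not in others is not thereby shown to differ between them, and that difference was not tested.

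**Figure D3:**
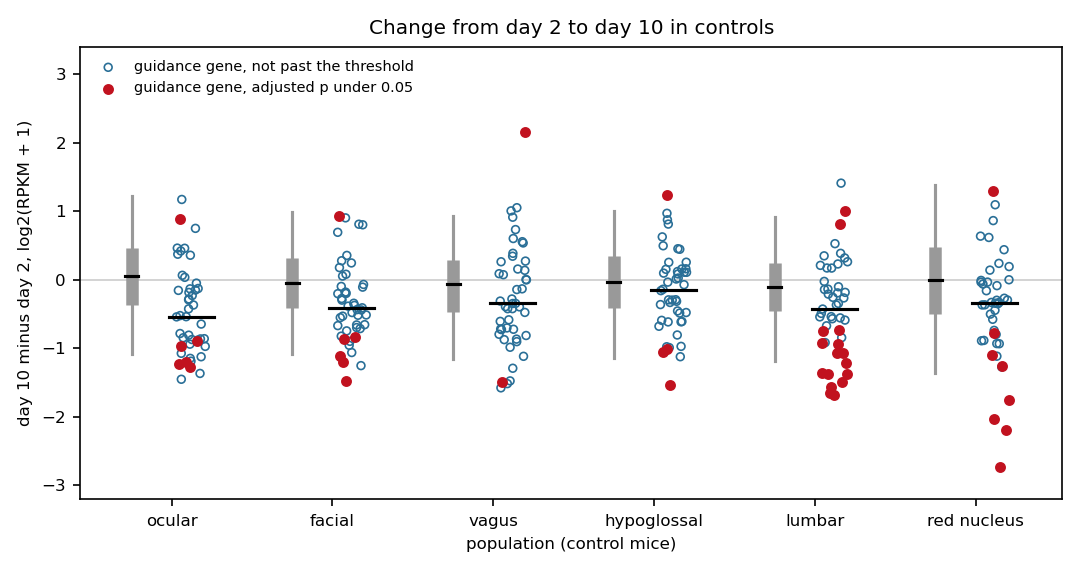
Change from day 2 to day 10 in controls on the log2(RPKM + 1) scale, by population. Open points are guidance genes that did not pass the test, red points those that did, black lines their medians, and grey bars the range of all genes tested from the 5th to the 95th percentile (thin) and from the 25th to the 75th (thick); 14 red points lie below 0 in lumbar neurons and 7 in the red nucleus.

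The genes that fell in lumbar motor neurons included ligands and receptors. Epha4 was at 28.8, 36.8, 45.5 and 51.7 RPKM in the 4 control mice at day 2, at 34.1, 40.3, 41.9, 42.3 and 51.2 in the 5 mice at day 5, and at 7.86, 11.9, 12.4 and 16.2 in the 4 at day 10. Days 2 and 5 overlapped and day 10 lay below both, with a log2 difference between days 10 and 2 of −1.68 (SE 0.27, limma adjusted p = 5.68e-05). Epha3, a related receptor, was at 5.84, 5.99, 10.3 and 10.9 at day 2 and at 1.18, 2.36, 2.38 and 2.38 at day 10 (−1.57, SE 0.30, adjusted p = 0.00053), again without overlap. The ligand Efna2 was at 3.50, 5.65, 6.55 and 8.05 at day 2 and at 0.128, 1.21, 1.32 and 2.70 at day 10 (−1.65, SE 0.33, adjusted p = 0.000731). Both neuropilins fell here. Nrp1 was at 48.3, 52.1, 55.9 and 58.9 at day 2 and at 21.5, 24.6, 31.0 and 34.9 at day 10 (−0.94, SE 0.17, adjusted p = 0.000247), and Nrp2 at 27.5, 30.3, 30.5 and 34.2 and then 13.2, 15.3, 16.0 and 18.7 (−0.92, SE 0.21, adjusted p = 0.00263). Neither neuropilin overlapped between the days. Their plexin partner Plxna1 fell by 0.74 on the log2 scale, and the other genes that fell were Plxnc1, Efna5, Efnb1, Efnb2, Sema4f, Sema4g, Sema5b and Sema6d, by 0.73 to 1.48.

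Summed markers of lumbar controls moved over the same interval in part. The 10 oligodendrocyte markers rose from a median sum of 61.4 RPKM at day 2 (36.9 to 69.1) to 960.3 at day 10 (606 to 1341), with no marker at 0 in every sample of either group. The 7 motor neuron markers had medians of 1467 and 1687, and the 9 astrocyte markers 2089.9 and 1975. What share these other cells have in the changes of guidance genes was not tested.

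**Figure D4:**
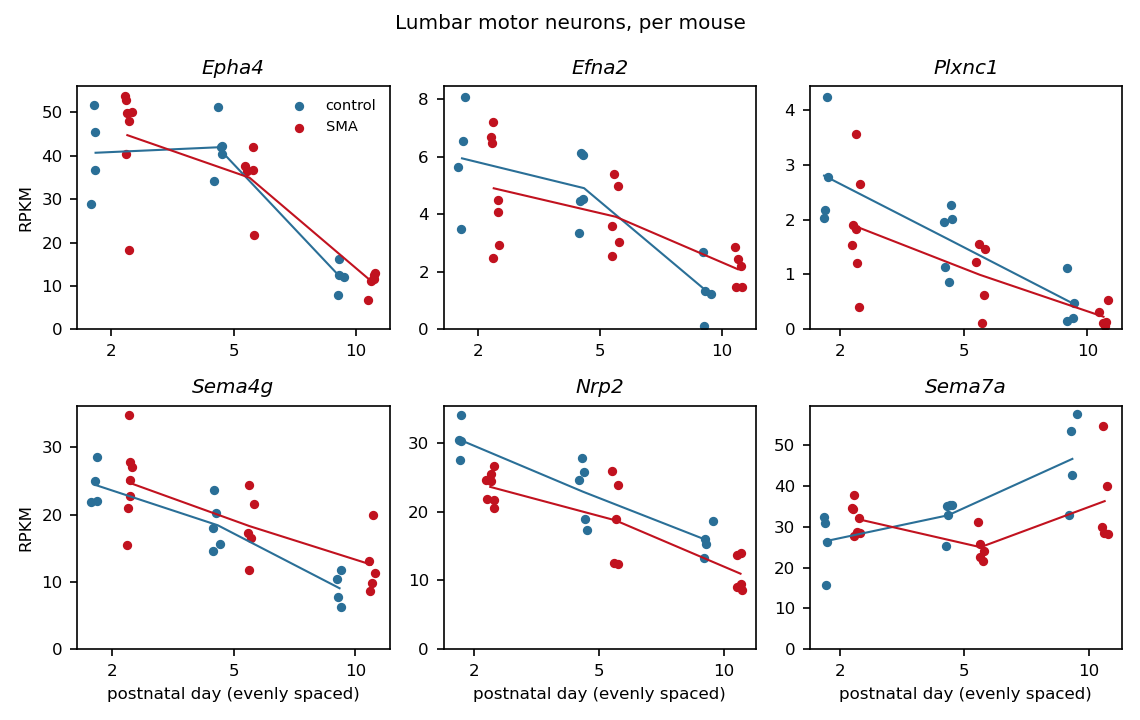
RPKM of 6 guidance genes per mouse in lumbar motor neurons at postnatal days 2, 5 and 10 (evenly spaced), control in blue and SMA in red, with lines through the group means. Epha4, Efna2, Plxnc1, Sema4g and Nrp2 were lower at day 10 than at day 2 in both genotypes, and Sema7a reached 46.6 RPKM in controls and 36.3 in SMA mice at day 10.

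Falls were also called in facial and hypoglossal neurons. Plxnc1, the receptor of Sema7a, fell in hypoglossal, lumbar and red nucleus neurons and had a negative difference in all 6 populations. In hypoglossal neurons it was at 6.18, 8.97, 10.4 and 16.0 RPKM at day 2 and 1.57, 2.60, 3.02 and 4.35 at day 10 (log2 difference −1.53, SE 0.35, limma adjusted p = 0.00802), with no overlap. Sema4g fell in facial, hypoglossal and lumbar neurons, and in facial neurons it went from 19.7, 21.5, 24.9, 26.0 and 28.8 to 6.66, 9.56, 11.6 and 16.7 (−1.11, SE 0.21, adjusted p = 0.00122), again without overlap. In hypoglossal neurons the Sema4g call (−1.01) was lost without mouse 247 or 254 (adjusted p = 0.0543 and 0.0564). Epha5 fell in hypoglossal neurons, from 41.6, 46.3, 48.1 and 54.9 to 17.3, 22.1, 25.7 and 25.9 (−1.05, SE 0.22, adjusted p = 0.00469). Epha7 fell in facial neurons, from 20.1, 39.004, 52.026, 59.9 and 68.1 to 8.32, 13.2, 20.2 and 23.5 (−1.48, SE 0.34, adjusted p = 0.00772), where mouse 28 at day 2 overlapped the day 10 range and the adjusted p was 0.0510 without mouse 253. Facial Plxna3 was at 10.5, 11.1, 21.7, 23.5 and 26.8 at day 2 and at 6.86, 6.93, 7.06 and 7.55 at day 10 (−1.19, SE 0.33, adjusted p = 0.0305). That call was lost without mouse 14, 240, 244, 247, 252, 253 or 254 (adjusted p = 0.0613 to 0.0833). Marker sums of other cells moved over the same days in these controls. In hypoglossal neurons oligodendrocyte sums went from a median of 100.4 to 669.97 and sums of the 4 meninges and fibroblast markers from 48.5 (30.8 to 54.7) to 261.2 (129.7 to 297.01). In facial neurons oligodendrocyte sums went from 62.9 to 291 and meninges and fibroblast sums from 1.26 (0.700 to 22.3) to 47.01 (26.6 to 83.7). Of the 4 markers, Col1a1 and Col1a2 stayed low. Their means over all days were 1.28 and 0.623 RPKM in hypoglossal and 0.812 and 1.26 in facial controls. The day 10 sums thus rest mainly on the other markers, Dcn and Lum. Their part in the results was not tested.

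In ocular motor neurons the secreted ligand Sema3a, the membrane ligand Sema6d, Nrp2, Epha4 and Epha5 fell. Sema3a was at 25.4, 28.3, 29.0 and 31.3 RPKM at day 2, at 14.3, 19.7, 22.6 and 23.9 at day 5 and at 10.8, 11.5, 11.6 and 13.6 at day 10, with no overlap between the days (log2 difference of days 10 and 2 −1.20, SE 0.29, limma adjusted p = 0.00814). Sema6d went from 15.7, 21.2, 22.4 and 25.5 to 6.04, 8.40, 9.41 and 10.3 (−1.22, SE 0.27, adjusted p = 0.00424), and Epha4 from 19.0, 22.0, 22.3 and 22.7 to 5.10, 8.77, 10.1 and 10.5 (−1.27, SE 0.37, adjusted p = 0.0324), also without overlap. The Epha4 call was lost without mouse 244, 252, 253, 254, 26 or 28 (adjusted p = 0.0501 to 0.128). Nrp2 went from 14.2, 14.5, 14.5 and 19.7 to 6.44, 7.37, 7.45 and 8.88 (−0.97, SE 0.24, adjusted p = 0.00935), whereas ocular Nrp1, at 63.8 ± 14.1 (n = 4) and 57.3 ± 6.77 (n = 4), had a difference of −0.13 (SE 0.30, adjusted p = 0.857). Oligodendrocyte marker sums in these ocular controls went from a median of 39.7 (33.6 to 51.4) to 535.8 (408 to 586) and astrocyte sums from 1586 (1516 to 1816) to 2470.1 (2117 to 2597), and their part in the result was not tested. Some ocular libraries held a single nucleus. Without them 2 genes were lower and 0 higher, with Sema3a at −1.14 (adjusted p = 0.0662) and Epha4 at −1.10 (adjusted p = 0.218).

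In the red nucleus and the vagus the largest fall was that of Efnb3, a ligand that acts as a midline repellent in the spinal cord. In red nucleus neurons Efnb3 was at 11.2, 17.7, 21.8 and 24.2 RPKM at day 2 and at 1.31, 1.42, 1.84 and 3.22 at day 10 (log2 difference −2.73, SE 0.40, limma adjusted p = 7.18e-05). In vagus neurons it was at 23.1, 48.3 and 53.8 and then at 7.56, 14.8, 16.4 and 16.6 (−1.50, SE 0.32, adjusted p = 0.0195). Neither population overlapped between the days, but the vagus call was lost without mouse 240, 244 or 247 (adjusted p = 0.0632 to 0.127). Efna2 in the red nucleus was at 2.89, 12.5, 18.1 and 19.8 at day 2 and at 0, 1.47, 3.10 and 3.68 at day 10 (−2.20, SE 0.47, adjusted p = 0.00353), with mouse 26 at day 2 inside the day 10 range. The sample at 0 came from mouse 252, whose library was the shallowest of all. Plxna3 there was at 15.6, 16.5, 17.5 and 21.3 and then at 0.810, 2.25, 6.90 and 8.13 (−2.03, SE 0.61, adjusted p = 0.0332), a call lost without mouse 14, 244, 247, 253, 26 or 28 (adjusted p = 0.0519 to 0.1197). Summed astrocyte markers of red nucleus controls went from a median of 822 to 1812 and oligodendrocyte markers from 31.7 to 495 over these days, and their part in the result was not tested. In vagus neurons oligodendrocyte sums were 104.7 at day 2 and 72.3 at day 10, and astrocyte sums went from 470.05 (397 to 607) to 714 (642 to 821), without overlap.

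The genes that rose were few, and Sema7a led them. In ocular neurons Sema7a was at 15.4, 16.1, 16.2 and 16.5 RPKM at day 2 and at 25.1, 29.2, 32.1 and 36.8 at day 10 (log2 difference 0.89, SE 0.27, limma adjusted p = 0.0413). In lumbar neurons it was at 15.8, 26.3, 30.9 and 32.5 and then at 32.9, 42.6, 53.5 and 57.6 (0.82, SE 0.21, adjusted p = 0.00924). The days did not overlap in these 2 populations, whereas in the red nucleus they did, with 3.18, 6.62, 7.48 and 13.8 at day 2 and 11.2, 19.4, 20.4 and 26.8 at day 10 (1.30, SE 0.41, adjusted p = 0.0421). Facial and hypoglossal neurons had differences of 0.80 (adjusted p = 0.0845) and 0.97 (adjusted p = 0.0644), and vagus neurons, where the gene was faint, −0.14. The lumbar call was lost without mouse 244 (adjusted p = 0.0686), the ocular call without any of mice 14, 244, 247, 252, 253, 254, 26 and 28 (0.0526 to 0.127), and the red nucleus call without mouse 196, 199, 244, 252, 253, 254, 258, 26, 28, 30 or 75 (0.0501 to 0.137).

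The remaining rises were each called in 1 population. Sema3b in vagus neurons was at 0.374, 0.653 and 0.817 RPKM at day 2 and at 3.94, 5.79, 7.84 and 7.90 at day 10 (log2 difference 2.16, SE 0.47, limma adjusted p = 0.022), without overlap. Sema6b in hypoglossal neurons was at 1.62, 2.21, 2.58 and 2.74 and then at 4.27, 4.46, 7.56 and 13.2 (1.24, SE 0.35, adjusted p = 0.0358), also without overlap. Both were lost when a single mouse was left out, Sema3b without 240, 244, 247, 254 or 26 (adjusted p = 0.0523 to 0.1004) and Sema6b without 240, 244, 252, 254, 26 or 28 (0.0563 to 0.174). Sema4d, a semaphorin that oligodendrocytes also make, was at 2.60, 3.65, 4.36, 4.77 and 5.66 in facial neurons at day 2 and at 5.27, 9.40, 10.7 and 10.9 at day 10 (0.94, SE 0.27, adjusted p = 0.0398), with mouse 254 inside the day 2 range. Oligodendrocyte marker sums in the same samples had medians of 62.9 and 291. The call was lost without mouse 14, 244, 247, 252, 253, 26, 28, 61 or 77 (adjusted p = 0.0501 to 0.134).

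Plxnb3, a plexin known from the oligodendrocyte lineage, was at 0, 0.0558, 0.0740 and 0.287 RPKM in lumbar neurons at day 2 and at 0.474, 0.761, 0.990 and 3.50 at day 10. The days did not overlap, and the highest value came from mouse 253. The log2 difference was 0.999 (SE 0.33, limma adjusted p = 0.0467), and without mouse 253 it was 0.65 (adjusted p = 0.231). Leaving out any of 16 other mice (196, 199, 20, 207, 209, 240, 244, 247, 252, 258, 28, 38, 41, 46, 55 or 71) also lost the call, at adjusted p = 0.0502 to 0.107. The oligodendrocyte markers rose in these lumbar samples as given above, and their part in the result was not tested.

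Day and library number cannot be fully told apart in these contrasts. In a further fit day 2 controls were limited to libraries numbered above 200, next to the day 10 range. This left mice 240 and 244 at day 2 in lumbar, facial, vagus and hypoglossal neurons. Lumbar neurons then had 10 genes lower and 1 higher, facial neurons 3 and 0, vagus neurons 1 and 0, and hypoglossal neurons 0 and 0. In ocular and red nucleus neurons mouse 244 alone was left at day 2, so no count is given for them. The named genes with the largest called changes kept their direction in that comparison, which had fewer mice. It used the same day 10 mice and a part of the same day 2 mice, so a kept direction is no separate test. In ocular and red nucleus neurons the direction rested on mouse 244 alone at day 2.

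SMA mice were tested over the same interval in the same fits. Every SMA library of day 2 was numbered below 190, and every SMA library of day 10 was numbered 190 or above. Day and library number thus cannot be told apart in SMA mice, and the fit on day 2 libraries above 200 could not be made for them. At day 10 20 guidance genes were lower than at day 2 in lumbar neurons (9.8% of all genes tested were), 8 in ocular (3.03%), 8 in facial (3.21%), 5 in hypoglossal (1.88%), 5 in red nucleus (2.08%) and 2 in vagus neurons (1.77%). Of the 35 genes and populations called lower in controls, 34 had the same sign in SMA mice and 23 were called there too. These shares were not taken over all genes, so they do not set guidance genes apart. Lumbar Epha4 was at 44.8 ± 12.5 RPKM (n = 7) in SMA mice at day 2 and between 6.84 and 12.9 in 5 mice at day 10, a log2 difference of −1.89 (SE 0.22, limma adjusted p = 3.78e-07) beside −1.68 in controls. Lumbar Nrp1 and Nrp2 fell by 0.98 and 1.06 in SMA mice, beside 0.94 and 0.92 in controls. Ocular Nrp2 went from 20.9 ± 3.29 (n = 6) to 5.58 ± 1.85 (n = 5), a difference of −1.77 (SE 0.20, adjusted p = 1.52e-06) beside −0.97. The exception in sign was Efnb1 in lumbar neurons, a ligand at low level that was at 0.868, 2.14, 2.56 and 3.64 in controls at day 2 and 0 to 0.426 at day 10, but at 0.730 ± 0.279 (n = 7) and 0.864 ± 0.409 (n = 5) in SMA mice. Of the 7 rises, 6 had the same sign and only Plxnb3 in lumbar neurons was called in SMA mice (1.13, SE 0.28, adjusted p = 0.00371). Hypoglossal Sema6b did not keep its sign. Red nucleus Sema5a was called higher at day 10 in SMA mice and was not called in controls. In SMA mice ocular Sema7a was at 19.1 ± 6.98 (n = 6) at day 2 and 19.2 ± 2.70 (n = 5) at day 10, a difference of 0.05 (SE 0.23, adjusted p = 0.941).

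Whether the change with day differed between genotypes was tested as an interaction, and no guidance gene passed it in any of 275 tests with limma; 24 had an unadjusted p under 0.05. Over all genes 0.126% passed in ocular, 0.122% in facial and 0% in vagus, hypoglossal, lumbar and red nucleus neurons. The lowest adjusted p was 0.205, for lumbar Efnb1 (1.58 on the log2 scale, SE 0.41). For Sema7a the interaction was −0.84 in ocular (SE 0.36, adjusted p = 0.684), −0.68 in lumbar (SE 0.28, adjusted p = 0.479) and −1.24 in red nucleus neurons (SE 0.58, adjusted p = 0.723), none of which passed the threshold. The median SE of these interactions was 0.48, which limits what size of difference could have been found.

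SMA and control mice did not differ in any guidance gene past the threshold, at any day in any population. The comparison covered 18 contrasts and 825 tests with limma, none called, and 65 tests (7.88%) had an unadjusted p under 0.05 where 7.1% of all tests did. Few genes of any kind were called. In ocular neurons 0.132% of all genes passed at day 2, 0.0252% at day 5 and 0.359% at day 10, and in facial neurons 0.0232%, 0.0695% and 0.666%. Lumbar neurons had 0.0122%, 0.0488% and 0.775%, and hypoglossal neurons 0.0364%, 0.00607% and 0.0728%. In vagus neurons the share was 0.00599% at each of the 3 days, and in the red nucleus it was 0.0434%, 0.0062% and 0.0124%. The SE of the 825 differences had a median of 0.35 and ran from 0.12 to 0.94, and differences ran from −1.30 to 2.13 on the log2 scale, 24 of them larger than 1 in size. The count of 0 was also found with a pseudocount of 0.1, without the filter on low values, after quantile normalization, with each library as its own sample, and when a fit held nothing but the compared groups.

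**Figure D5:**
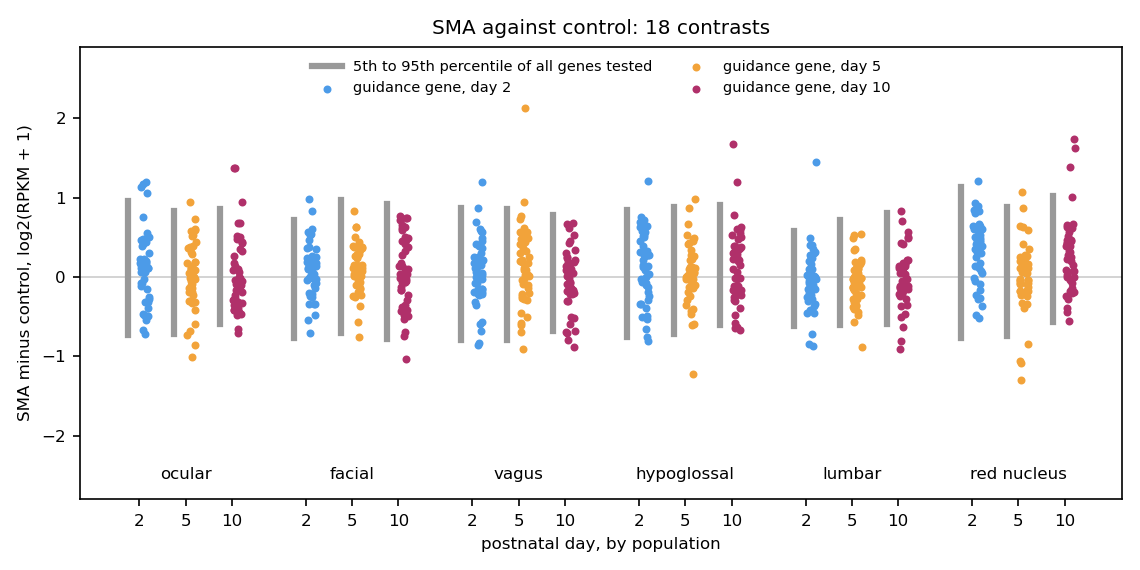
Difference between SMA and control mice on the log2(RPKM + 1) scale for every tested guidance gene (points, coloured by postnatal day), with a grey bar from the 5th to the 95th percentile of all genes tested in the same contrast. No point passed an adjusted p of 0.05, and the points range from −1.30 to 2.13.

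The gene nearest the threshold was Sema5a in ocular neurons, the population where controls had least of it. At day 10 it was at 0.629, 1.45, 1.47 and 1.54 RPKM in controls and at 2.22, 3.08, 3.83, 6.54 and 12.8 in SMA mice, and at day 2 at 0.471, 0.513, 0.730 and 1.01 in controls and 1.39, 1.61, 2.63, 2.97, 4.46 and 5.54 in SMA mice. The genotypes did not overlap at these days but did at day 5, when controls were at 2.16, 2.28, 2.83 and 4.99 and SMA mice at 2.42, 2.50, 2.67, 2.86 and 3.12. The log2 difference was 1.38 (SE 0.36, limma adjusted p = 0.131) at day 10 and 1.20 (SE 0.35, adjusted p = 0.170) at day 2. Marker sums differed between the genotypes in the same day 10 samples. The motor neuron sum was 956 to 1047 in controls and 459.9 to 896 in SMA mice. The red nucleus sum, of Pou4f1 and Slc17a6 alone, had a median of 8.52 (4.74 to 16.9) in controls and 23.8 (9.07 to 176.9) in SMA mice, with overlap. At day 2 the red nucleus medians were 6.59 and 5.71. Control red nucleus neurons had Sema5a at 13.4 ± 4.68 (n = 11) and ocular neurons at 1.67 ± 1.29 (n = 12), and the part of the markers in the result was not tested. Without SMA mouse 249 the day 10 difference was 1.59 and passed (adjusted p = 0.0429). Sema6b is a membrane ligand for class A plexins. In hypoglossal samples at day 2 it was at 1.62 to 2.74 in 4 control and 4.64 to 10.2 in 6 SMA mice. These did not overlap (1.20, SE 0.32, adjusted p = 0.176). The same 4 control values were the day 2 side of its rise with day in controls. Red nucleus Efna2 at day 10 was at 0, 1.47, 3.10 and 3.68 in controls and 5.41, 7.83, 8.79 and 9.57 in SMA mice (1.74, SE 0.47, adjusted p = 0.454). The control at 0 was mouse 252, whose library was the shallowest of all, and without that mouse the difference was 1.27. These control values were also the day 10 side of the fall of Efna2 with day. Sema4b, the most abundant semaphorin, was at 31.8 to 54.3 in 4 control and 17.3 to 33.8 in 6 SMA hypoglossal samples at day 2, which overlapped (−0.76, SE 0.25, adjusted p = 0.274).

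Neither neuropilin passed the test between the genotypes in any of the 18 contrasts. Differences of Nrp1 ran from −1.08 to 0.67 and those of Nrp2 from −0.69 to 0.83 on the log2 scale. Lumbar Nrp1 was at 28.0 ± 6.04 RPKM (n = 4) in controls and 27.0 ± 6.46 (n = 5) in SMA mice at day 10, a log2 difference of −0.06 (SE 0.16, limma adjusted p = 0.953). Nrp2 at day 10 was lower by point estimate in SMA mice in all 6 populations, with values of −0.69 (SE 0.24, adjusted p = 0.298) in facial, −0.63 (SE 0.31) in hypoglossal, −0.50 (SE 0.20, adjusted p = 0.318) in lumbar, −0.41 (SE 0.22) in ocular, −0.20 (SE 0.37) in red nucleus and −0.07 (SE 0.23) in vagus neurons. The 6 populations were taken from the same 4 control and up to 5 SMA mice, so these differences are not independent of each other. Facial Nrp2 was at 16.7, 20.4, 24.0 and 29.1 in controls and at 8.21, 11.8, 17.6 and 18.3 in SMA mice, and these ranges overlapped.

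Genes that carry guidance signals inside the cell were followed through a fixed list of 44, among them collapsin response mediators, which relay Sema3a to the cytoskeleton. From day 2 to day 10 in controls 10 of 41 tested fell in lumbar neurons (7.25% of all genes did), 10 of 42 in red nucleus (5.42%), 8 of 42 in ocular (3.64%), 7 of 42 in hypoglossal (2.68%), 6 of 42 in facial (2.76%) and 1 of 41 in vagus neurons (0.437%), and 0 to 2 rose. Crmp1, a collapsin response mediator, fell in all 6 populations: in lumbar neurons it went from 204.3 ± 27.4 RPKM (n = 4) to 64.6 ± 6.21 (n = 4), a log2 difference of −1.64 (SE 0.12, limma adjusted p = 1.85e-10). Dpysl3, of the same family, went from 193.4 ± 13.7 to 104.7 ± 7.27 there (−0.88, SE 0.13, adjusted p = 1.25e-05). Pak1, a kinase downstream of Rac, rose in hypoglossal (0.85), lumbar (0.55) and red nucleus neurons (0.91). No gene of this list differed between the genotypes past the threshold.

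A second fixed list held 26 genes of the netrin, slit, RGM and related guidance families, 19 to 22 of which were tested. From day 2 to day 10 in controls 8 of 22 fell in lumbar neurons (7.25% of all genes did), 4 of 22 in facial (2.76%), 3 of 19 in ocular (3.64%), 3 of 21 in red nucleus (5.42%), 1 of 22 in hypoglossal (2.68%) and 0 of 21 in vagus neurons (0.437%), and none rose. Robo2, a slit receptor, fell in ocular, lumbar, facial and red nucleus neurons, by 1.15 in the red nucleus and by 1.80 in ocular neurons on the log2 scale. The genotype contrasts called 1 gene of this list, Robo3, a receptor of commissural axons, which was named after its values were seen. It was called at day 10 in ocular neurons, where 0.359% of all genes passed, and in lumbar neurons, where 0.775% did. Control means of Robo3 were below 1 RPKM in both, and its calls are not given under the alternatives or with mice left out. In ocular neurons at day 10 Robo3 was at 0.393 ± 0.5004 RPKM (n = 4) in controls and 4.58 ± 1.78 (n = 5) in SMA mice (log2 difference 2.00, SE 0.32, limma adjusted p = 0.001004). In lumbar neurons at day 10 it was at 0.0307 ± 0.0613 (n = 4) and 5.08 ± 4.65 (n = 5), a difference of 2.22 (SE 0.44, adjusted p = 0.00797). Facial and hypoglossal neurons at day 10 had differences of 1.56 (adjusted p = 0.302) and 1.18 (adjusted p = 0.485).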

How the data were processed

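The deposited table holds RPKM values made by the authors, in 1 column per library. Reads were mapped with STAR 2.4.1c, and the builds mm10 and hg19 are named, per the submitters' processing notes. The read counter, annotation and use of strand are not given in the sources used here, so reads of overlapping or antisense genes and of close paralogs may be mixed. Per the labels, lumbar control libraries of day 5 include reads of an earlier deposit.

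The design allowed for counts or RPKM, and the file held RPKM. Of the low values of single-transcript genes, 70.9% lay within 0.1% of a whole number of reads in the median library, so no count test was run. Libraries of the same mouse and population were averaged (8 of 160 mouse samples). Genes were tested where the number of mouse samples at 1 RPKM or more reached the size of the smallest group, on log2(RPKM + 1), which understates changes of low genes, with limma 3.58.1 in R 4.3.3 (lmFit, eBayes with trend). Each population was fitted with its 6 groups of genotype and day, and populations were compared in all control samples. Tests were two-sided, with Benjamini-Hochberg adjustment over all genes of a contrast and a threshold of 0.05. The fits were tested on simulated data. Python 3.11.15, pandas 2.3.3, numpy 2.4.6 and matplotlib 3.10.9 served for tables and plots.

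Mouse numbers mark the same animal across populations. Deviations from group means correlated with a median of 0.0296 between populations of the same mouse (150 pairs, −0.0413 to 0.145) and −0.00708 between different mice (568 pairs). The alternative fit took the mouse as a block with statmod 1.5.0, at a correlation of 0.0339. Other alternatives changed the pseudocount, filter, normalization, averaging, mice, groups fitted and libraries.

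Named genes are Nrp1, Nrp2, the 2 most abundant members of each other family, in each population up to 3 members with the largest excess and the 1 with the largest deficit against the other populations, up to 3 that rose most and 3 that fell most with day, and any member called between genotypes. Some other members are also given outside this rule, such as Plxna2, Sema3f, Efna4, Ephb1, Ephb2 and Ephb3. Uncalled genotype differences of Sema5a, Sema6b, Efna2, Sema4b and Efnb1 are shown because their unadjusted p was among the lowest. They were thus picked after the values were seen. Members and lists were chosen with earlier results of these data known. Gene spans are from GENCODE M21 and promoters from RefSeq, both on GRCm38.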

Additional observations from a re-analysis of the deposited data

Results flagged for a closer look

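In 5 cases a single mouse lay far from the others of its group, by a gap that exceeds Dixon's 95% limit for the group's size. This rule picks out about 1 in 20 groups by chance, and 58 groups were examined (8.62% picked out). In lumbar controls at day 10, mouse 253 had the lowest Epha3 of 4 mice, 1.18 RPKM, and the highest Plxnb3, 3.50 RPKM. In hypoglossal neurons at day 2, Sema4b was highest in SMA mouse 206 (33.8 RPKM, 6 mice) and in control mouse 240 (54.3 RPKM, 4 mice). In ocular controls at day 10, mouse 247 had the lowest Sema5a of 4 mice, 0.629 RPKM.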

How the results depend on the processing

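The largest called differences by day and by population kept their sign under every alternative in which they were fitted. So did the genotype differences with the lowest p. Signs of the other differences were not followed. Counts below are of guidance genes past the threshold, for day 10 against day 2 in controls unless populations are named. Without the filter on low values 0 were higher in ocular and red nucleus neurons, 1 was higher in lumbar and 4 were lower in red nucleus neurons, and 1 was lower in the facial population comparison. With a pseudocount of 0.1 1 was higher in lumbar neurons and 1 lower in the facial population comparison, and with each library as a sample 1 was higher in lumbar neurons. Quantile normalization left 3 lower in facial neurons. Without the ocular libraries of a single nucleus 0 were higher and 2 lower. An alternative chosen after seeing the data kept only day 2 control libraries above number 200. The higher counts were then 0 in facial, vagus and hypoglossal and 1 in lumbar neurons. The lower counts were 3 in facial and 0 in hypoglossal neurons. Ocular and red nucleus neurons, left with mouse 244 alone at day 2, are not counted. With only the compared groups fitted, which leaves fewer samples, the higher counts were 0 in facial, vagus, hypoglossal, lumbar and red nucleus neurons, and the lower counts were 3 in ocular, 2 in facial, 0 in vagus, 1 in hypoglossal and 3 in red nucleus neurons. In day 10 controls alone the population comparison had 6 higher and 6 lower in ocular, 0 lower in facial, 1 lower in hypoglossal, 4 higher and 5 lower in lumbar and 5 higher in red nucleus neurons. Apart from the fewer samples or genes named, the cause of these changes was not tested.

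Leaving out each mouse in turn gave 0 to 1 calls between genotypes (1 without mouse 249). The higher counts were then 0 to 1 in ocular, facial, vagus, hypoglossal and red nucleus and 0 to 2 in lumbar neurons. The lower counts were 3 to 6 in ocular, 2 to 6 in facial, 0 to 2 in vagus, 2 to 3 in hypoglossal, 12 to 15 in lumbar and 3 to 7 in red nucleus neurons. The population comparison had 1 to 2 lower in facial and 3 to 5 lower in hypoglossal neurons.

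With the mouse as a replicate block, the population comparison called 11 higher and 12 lower in ocular, 10 and 2 in facial, 17 and 13 in vagus, 11 and 5 in hypoglossal, 12 and 11 in lumbar and 8 and 17 in red nucleus neurons. The other comparisons lie between different mice and take no block.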
